A study of Mus musculus with 21 samples.

Results

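The contractile apparatus of uterine smooth muscle was examined through 40 genes that encode its filaments, regulators, channels and signalling enzymes. The genes were picked by symbol, without a measured threshold, and all 40 were among the 12791 genes of the deposited tables. By role they fell into 9 genes for filaments and motors, 17 for filament regulators and linkers, 3 for transcription regulators, 6 for calcium, potassium and membrane coupling, and 5 for kinase and phosphatase signalling.

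The RNA was of whole uterus from C57BL/6J mice, all wild type, aged 5 weeks (7 libraries), 8 weeks (7 libraries) or old (6 libraries), in a study whose title names ageing of endometrial cells. All mice had been injected with pregnant mare serum gonadotropin, which stimulates the ovaries, at 5 or 7.5 units and were dissected 48 h later. An earlier set of 6 libraries, replicates 1 and 2 of each age, held aged mice of 60 to 75 weeks, and a later set of 14 libraries, replicates 3 to 7, held aged mice of 79 weeks. The sources used here assign neither the hormone dose, the RNA kit nor the read layout (60 bp single or 150 bp paired) to single libraries, so these cannot be told apart from the set. The whole uterus also holds epithelium, stroma, vessels and serosa, and the labels do not say whether each replicate was a separate mouse, so the p-values measure the spread between these libraries, which may in part be technical.

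Before any result, the columns were checked against their files. In 15 of the 20 libraries the column header named another sample than the one the file is attached to, and each column was used as its header names it. In 4 of these, 5 weeks replicate 3, 8 weeks replicate 3, aged replicate 2 and aged replicate 5, the header differed from the file in age or in set. Depth, counted over the listed genes only, was 12204573 to 14448283 reads per earlier library and 19100690 to 30689439 per later library. In every library the lowest value of any listed gene was worth 10 to 12 reads. Genes with fewer reads in even 1 library therefore seem not to be listed, absent ones among them.

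Smooth muscle contracts when calcium enters through voltage-gated channels or leaves internal stores and leads to the activation of myosin light chain kinase, after which smooth muscle myosin pulls on actin filaments anchored at dense bodies and adhesion plaques. Myosin phosphatase reverses the phosphorylation, and potassium channels oppose calcium entry. In the myometrium this machinery is built during postnatal growth, responds to ovarian steroids and is remodelled for labour; many of its genes are driven by serum response factor with its coactivator myocardin, through the promoter element called the CArG box.

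The promoter element was looked for directly, because many members of the list moved together from library to library, as described further on. A window of 250 bases before to 50 bases after the gene start was found for 34 of the 40 genes in RefSeq (GRCm38.p6). Actg2, Myh11, Tagln, Myocd, Tgfb1i1 and Nexn had no entry. A CArG box, whose definition reads the same on both strands, was present in 6 of 34 genes (17.6%) against 162 of 10017 genes of the deposited tables with an entry (1.62%) and 1.63% of all 32851 windows of that length. The 6 genes were Srf, Myl9, Myl6, Dmd, Cnn2 and Vcl, and Srf held 2 boxes. Each box found read CC, then 6 letters of A or T, then GG. A stretch of Srf that differs from this form at 1 letter was not counted. Genes without a match may therefore still hold a variant of the box. The genes were picked by symbol from machinery of which many genes are driven by serum response factor, Srf itself among them. The higher share is thus a trait of the chosen list, not a result of the measured levels. A match describes letters in this window only, and the part of the box in the shared movement of the genes was not tested. Shown are the 250 bases before the start for Srf, which encodes the factor itself, for the myosin light chains Myl9 and Myl6, the second of which had the largest difference between the sets, and for Dmd, a gene called with age; capitals mark each CArG box.
Srf, chr17:46556163-46556412, minus strand: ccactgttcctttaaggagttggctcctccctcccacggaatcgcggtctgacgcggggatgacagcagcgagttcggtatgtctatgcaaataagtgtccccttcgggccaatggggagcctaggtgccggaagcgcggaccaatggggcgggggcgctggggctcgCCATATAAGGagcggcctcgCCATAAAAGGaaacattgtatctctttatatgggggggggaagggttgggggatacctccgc
Myl9, chr2:156775214-156775463, plus strand: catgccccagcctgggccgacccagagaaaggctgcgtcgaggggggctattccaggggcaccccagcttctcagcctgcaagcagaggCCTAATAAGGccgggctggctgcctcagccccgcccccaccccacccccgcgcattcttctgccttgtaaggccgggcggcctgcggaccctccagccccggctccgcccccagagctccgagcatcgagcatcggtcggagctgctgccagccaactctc
Myl6, chr10:128493010-128493259, minus strand: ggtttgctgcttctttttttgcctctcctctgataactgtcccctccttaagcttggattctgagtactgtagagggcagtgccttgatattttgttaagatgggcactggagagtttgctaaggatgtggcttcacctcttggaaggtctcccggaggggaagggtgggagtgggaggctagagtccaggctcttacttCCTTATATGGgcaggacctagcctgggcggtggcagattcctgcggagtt
Dmd, chrX:82948620-82948869, plus strand: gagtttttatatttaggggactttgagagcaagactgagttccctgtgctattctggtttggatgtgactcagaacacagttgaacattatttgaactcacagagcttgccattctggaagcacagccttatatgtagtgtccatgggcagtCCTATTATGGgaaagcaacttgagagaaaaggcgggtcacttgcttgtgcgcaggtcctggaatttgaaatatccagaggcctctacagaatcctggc
The first base of the box lay 82 and 62 bases before the start of Srf, 161 before that of Myl9, 50 before that of Myl6 and 98 before that of Dmd. Myl6 and Dmd each had 2 windows in the table, of which the one with the box is shown.

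Levels were compared between genes as CPM (reads scaled to the size of the library) per kb of exon, averaged over the 20 libraries. Acta2, the smooth muscle alpha actin, was the highest at 1946 CPM per kb, followed by the actin-binding protein transgelin, Tagln (1511), and the regulatory myosin light chain Myl9 (1181). The enteric gamma actin Actg2 stood at 661 CPM per kb and the essential light chain Myl6 at 468. Smooth muscle myosin heavy chain Myh11, the motor itself, reached 144 CPM per kb and ranked 11th. The transcription regulators Tgfb1i1 and Srf lay mid-list at 35.1 and 32.6. Far lower were the L-type calcium channel Cacna1c at 1.48, the coactivator Myocd at 0.987, the cGMP-dependent kinase Prkg1 at 0.69 and the large-conductance potassium channel Kcnma1 at 0.29 CPM per kb, the lowest of the 40. Within the dense-body and adhesion genes, the LIM protein Csrp1 stood at 530.2 CPM per kb, filamin A (Flna) at 134 and vinculin (Vcl) at 7.7.

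Some of these levels are uncertain by construction. The library kit as named does not mark strand, and 67.9% of the exon bases of Tagln are also exon of Pcsk7 or Gm48529 on the other strand, 64.7% of those of the phospholamban gene Pln of Cep85l or Gm47644, and 25.5% of those of Vcl of Ap3m1. Smtn shared 16.3% and Synm 6.43% with other genes. Acta2 and Actg2 encode near-identical proteins, and reads could pass between the genes where their sequences match, which was not measured.

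Smooth muscle identity was present in every library: Acta2 was never below 428 CPM and Myh11 never below 114 CPM. Of 25 skeletal and cardiac muscle markers, 8 were listed, with a summed level of 29.7 to 529.6 CPM. The genes do not mark myometrium alone, since vascular smooth muscle uses the same machinery. In bulk tissue, fewer muscle cells and less RNA per muscle cell cannot be told apart.

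Many members moved together by library, and far apart between libraries of the same age. Their summed share of the reads in listed genes ran from 0.552% in 8 weeks replicate 1 to 4.38% in aged replicate 5, a 7.94-fold range. At 5 weeks the lowest, median and highest shares were 0.671%, 1.88% and 2.91% (mean 1.82 ± 0.765, SD, n = 7). At 8 weeks they were 0.552%, 2.61% and 3.59% (mean 2.30 ± 1.22, SD, n = 7), and in aged uteri 0.833%, 3.01% and 4.38% (mean 2.60 ± 1.39, SD, n = 6). The ages overlapped over most of their range. By set, the median share was 0.846% in the 6 earlier and 2.75% in the 14 later libraries.

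**Figure D1:**
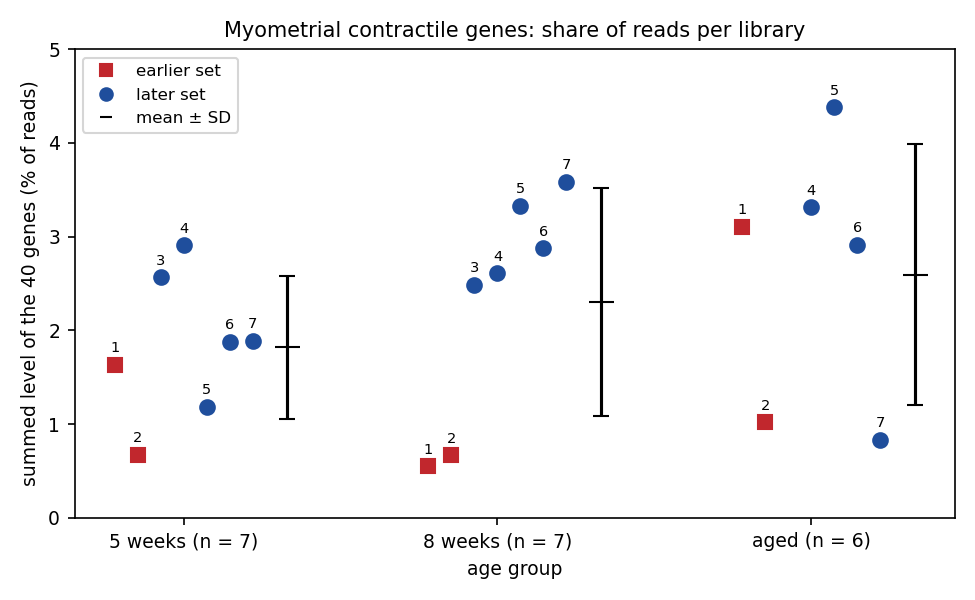
Summed level of the 40 genes as a percentage of the reads in listed genes (vertical axis) in each library, by age group (horizontal axis). Numbers are replicate numbers, squares the earlier and circles the later set, bars the mean ± SD. Within each age the share spans several-fold, and aged replicate 7 (0.833%) lies far below the other later aged libraries.

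In some libraries the same direction ran through nearly the whole list. In aged replicate 1, 38 of 40 genes lay above the mean of the earlier set, with a median deviation of 1.43 on the log2(CPM + 1) scale. In 8 weeks replicate 1, 0 of 40 did (-0.94), and in 8 weeks replicate 2, 3 of 40 (-0.66). The 5-week libraries of this set lay on opposite sides, with 38 of 40 in replicate 1 (0.60) and 2 of 40 in replicate 2 (-0.55). Among later libraries, 38 of 40 genes were above the mean of the set in 8 weeks replicate 5 (0.50), 8 weeks replicate 7 (0.74) and aged replicate 5 (0.46). Only 3 of 40 were above it in 5 weeks replicates 6 (-0.90) and 7 (-0.40), and 8 of 40 in aged replicate 7 (-0.79). Over all genes the median deviation in these libraries lay between -0.38 and 0.14, the lowest in 5 weeks replicate 6. Some other libraries were mixed. The 8 weeks replicates 3 and 4 held 6019 and 5702 CPM of Acta2 with 13 and 12 of 40 genes above the mean of the set. In 5 weeks replicate 5, Acta2 stood at 1376 CPM with 16 of 40 above.

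**Figure D2:**
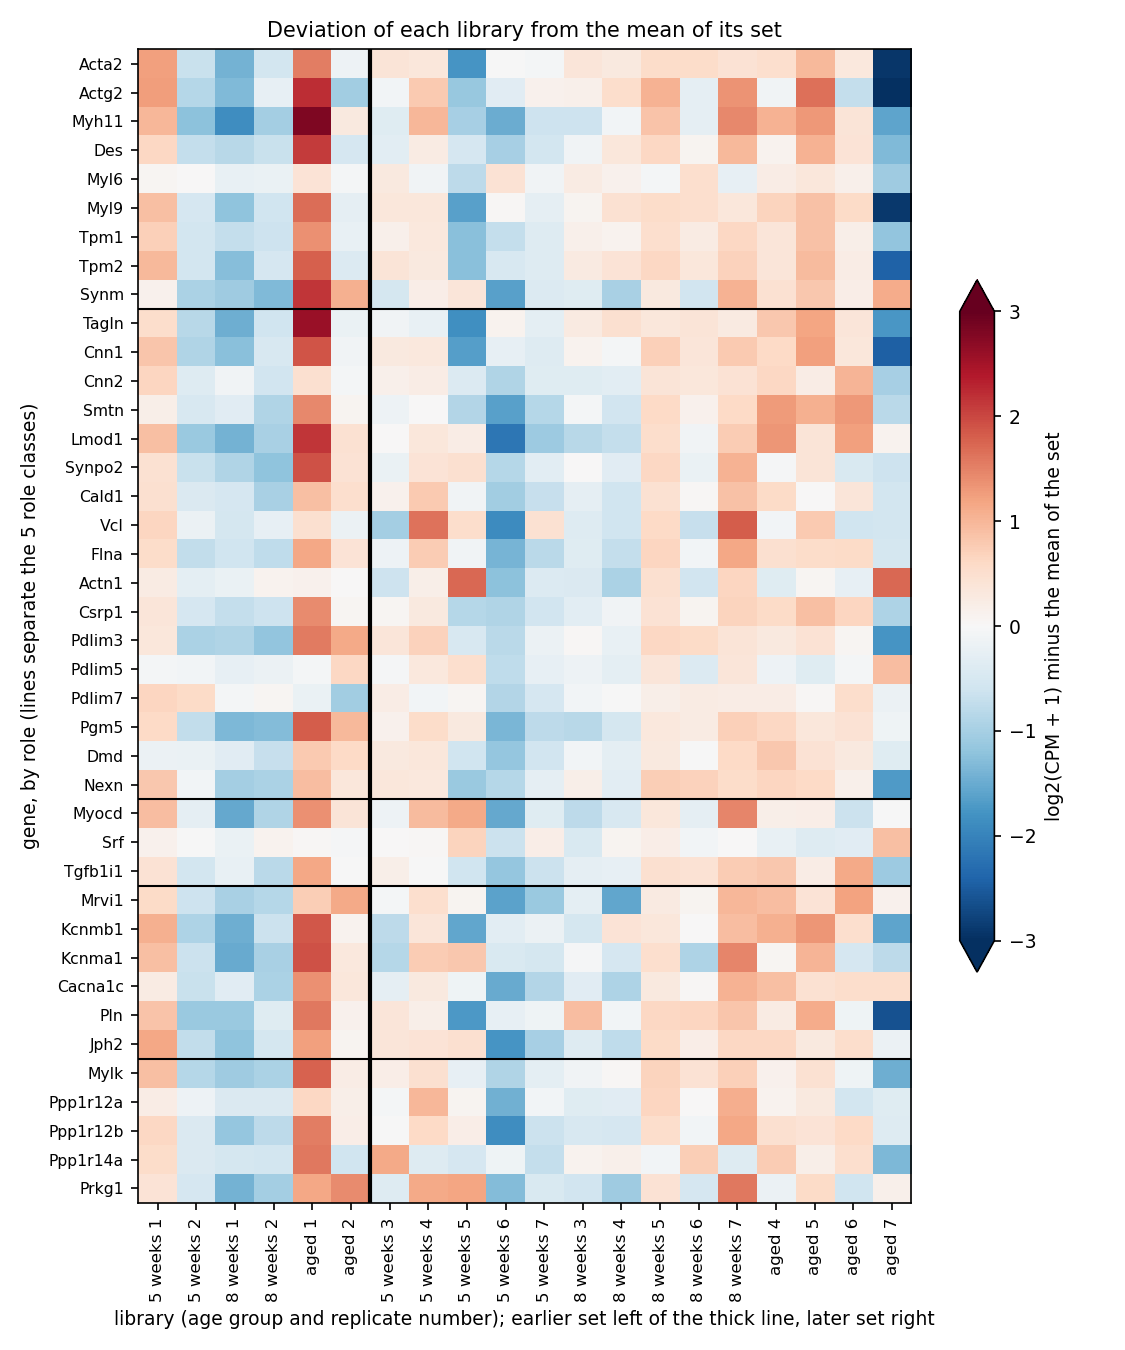
Deviation of each gene (rows, ordered by role) in each library (columns) from the mean of its set on the log2(CPM + 1) scale; red is higher, blue lower, and colours saturate at 3 in both directions. Some columns share nearly one colour, as in aged replicate 1 (38 of 40 genes higher) and 8 weeks replicate 1 (0 of 40 higher).

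This variation set the precision of every comparison. Within age and set, the SD of log2(CPM + 1) had a median of 0.732 over the 40 genes and 0.397 over all genes, and 21 of 40 genes lay above 0.709, the 90th percentile of all genes. Actg2 varied most, with an SD of 1.28 (percentile 99.2), then Myh11 at 1.12 and Acta2 at 1.08. The LIM protein gene Pdlim7 was the one member below the median of all genes, with an SD of 0.33, and Srf stood just above it at 0.41. Of the 6 genes with a matched CArG box, Srf, Myl6, Dmd and Cnn2 stood at percentiles 51.8, 58.0, 62.7 and 78.4. The other box genes, Vcl and Myl9, stood at 97.8 and 98.2. The standard error of an aged against 8-week difference had a median of 0.405 over the members and 0.221 over all genes.

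Other cell types varied too. The summed level of 22 epithelial markers was 6534 to 12585 CPM in the earlier libraries and 2345 to 7635 CPM in the later ones. By limma 14 of the 22 were lower in the later set and 0 higher, where 38.3% of all genes were lower and 20.5% higher. In aged replicate 7, where the members were low, epithelial markers summed to 7415 CPM, the most of any aged library. The 18 stromal markers summed to 5852 to 10749 CPM in aged and 7565 to 19656 CPM in 5-week libraries. The part of these cell types in the results on the contractile genes was not tested.

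In aged against 8-week uteri, 1 of the 40 genes was called, higher, and 0 were called lower. Over all genes 2196 of 12791 passed the same threshold, a limma adjusted p below 0.05 (17.2%; 1105 higher, 8.64%, and 1091 lower, 8.53%) against 2.5% of the list. The fitted difference was positive for 35 of 40 genes (54.6% of all genes). Its median was 0.37 against 0.05 over all genes (log2 of CPM + 1, with the set as a term in the fit). The median was 0.07 for the 6 genes with a matched CArG box. It was 0.43 for the other 34, which include those with no promoter entry and may include genes with a variant box. For 0 of 40 genes the ages did not overlap (1.96% of all genes).

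Against 5-week uteri, 5 genes were higher and 0 lower in aged uteri: Synm, Lmod1, Smtn, Cacna1c and Dmd. The background was 2825 genes (22.1%; 1622 higher, 12.7%, and 1203 lower, 9.41%), and the 5 were 12.5% of the list. Both comparisons use the same aged libraries. The difference was positive for 36 of 40 genes (57.1% of all genes), with a median of 0.42 against 0.09 over all genes. For 0 of 40 the ages did not overlap (3.08% of all genes). Without aged replicate 1, the library with the highest members of its set, 0 of 40 genes were called in either comparison (10.2% and 15.5% of all genes), and the genes with a positive difference fell to 26 of 40 in each. Without aged replicate 7, the lowest later aged library, 5 genes were called against 8 weeks (12.5% of the list and 15.3% of all genes) and 10 against 5 weeks (25% and 20.5%). Without 8 weeks replicate 1 or 2, 0 were called against 8 weeks (11.4% and 10.6% of all genes). Leaving out the 4 columns filed under another age or set gave 0 called genes against 8 weeks (11.2% of all genes) and 2 against 5 weeks (19.9%), Smtn (limma adjusted p = 0.0371) and Cacna1c (adjusted p = 0.0389). Taking each column by its file gave 0 (4.42%) and 1 (15.7%), Dmd against 5 weeks (limma adjusted p = 0.0399).

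Among filaments and motors, Synm was called in both comparisons. It encodes synemin, an intermediate filament protein that links desmin to the membrane (ENSMUSG00000030554, chr7:67730160-67759742, minus strand, GRCm38). The lowest, median and highest levels were 9.19, 22.4 and 39.5 CPM at 5 weeks, 11.2, 20.2 and 63.1 at 8 weeks and 34.8, 58.6 and 133 in aged uteri. The ages overlapped, and aged replicate 1 held the highest value, but 5 of 6 aged libraries lay above every 5-week library and 3 of 6 above every 8-week library. The increase was 1.39 ± 0.39 (log2 ± SE; limma adjusted p = 0.0211) against 8 weeks and 1.37 ± 0.39 (adjusted p = 0.0185) against 5 weeks. Without aged replicate 1 the values were 1.12 (limma adjusted p = 0.0668) and 1.10 (adjusted p = 0.0562), and without 8 weeks replicate 1 or 2 the first was 1.27 (adjusted p = 0.0543) or 1.21 (adjusted p = 0.06).

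The abundant filament genes behaved differently. Acta2 had lowest, median and highest levels of 722, 4487 and 6138 CPM at 5 weeks, 428, 6019 and 6864 at 8 weeks and 619.7, 4565 and 9198 in aged uteri, so the aged range enclosed nearly all others. Its difference was 0.01 ± 0.58 (limma adjusted p = 0.991) against 8 weeks and 0.12 ± 0.58 (adjusted p = 0.9) against 5 weeks, near 0 with a wide error, and its sign changed with the library left out. Myl6, the essential light chain shared by muscle and other cells, had 316, 1777 and 2592 CPM at 5 weeks, 271, 1845 and 2698 at 8 weeks and 302, 1529 and 2444 in aged uteri. Its difference was -0.02 ± 0.23 (limma adjusted p = 0.959) against 8 weeks and 0.03 ± 0.23 (adjusted p = 0.932) against 5 weeks. Myh11 stood at 745 ± 586 CPM at 5 weeks, 1016 ± 906 at 8 weeks and 1580.1 ± 1047 in aged uteri (mean ± SD), with a difference of 0.93 ± 0.61 against 8 weeks that did not pass (limma adjusted p = 0.308). Across all 9 filament genes the median difference was 0.09 against 8 weeks and 0.23 against 5 weeks, from -0.35 and -0.13 for Actg2 to the values of Synm.

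**Figure D3:**
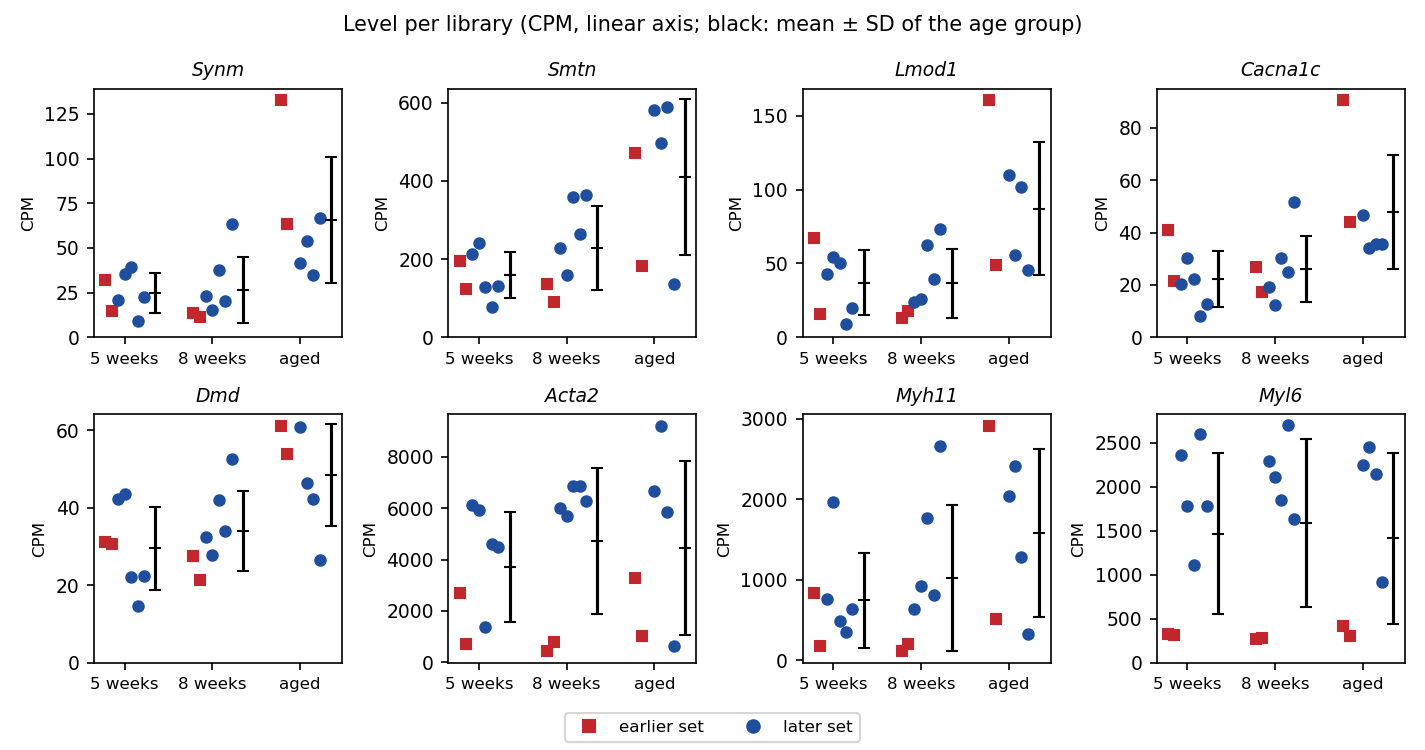
Level in CPM (vertical axis, linear) of 8 genes in each library by age group (horizontal axis); squares are the earlier and circles the later set, black bars the mean ± SD of the age. Synm, Smtn, Lmod1, Cacna1c and Dmd were called higher in aged than in 5-week uteri with overlapping ages, while Acta2, Myh11 and Myl6 were not called.

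Filament regulators and linkers gave 3 of the 5 calls against 5 weeks. Smtn encodes smoothelin, an actin-associated protein of contractile smooth muscle (ENSMUSG00000020439, chr11:3517523-3540612, minus strand, GRCm38). It had lowest, median and highest levels of 76, 131 and 241 CPM at 5 weeks, 90.9, 227 and 363 at 8 weeks and 137, 484 and 588 in aged uteri. In words, 4 of 6 aged libraries exceeded every younger one, while aged replicates 2 and 7 lay among the younger. The difference was 1.28 ± 0.37 (limma adjusted p = 0.0184) against 5 weeks and 0.81 ± 0.37 (adjusted p = 0.135) against 8 weeks. Without aged replicate 1 the first was 1.11 (limma adjusted p = 0.0534), and without aged replicate 7 the second was called at 1.14 (adjusted p = 0.0242).

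Lmod1, leiomodin 1, nucleates actin filaments in smooth muscle (ENSMUSG00000048096, chr1:135324807-135368065, plus strand, GRCm38). Its levels were 8.76, 43 and 66.9 CPM (lowest, median, highest) at 5 weeks, 12.7, 25.9 and 73.2 at 8 weeks and 45.8, 78.9 and 161 in aged uteri, where 3 of 6 libraries exceeded all younger ones. The difference was 1.36 ± 0.47 (limma adjusted p = 0.0438) against 5 weeks and 1.34 ± 0.47 (adjusted p = 0.0551) against 8 weeks. The call against 5 weeks ended without any one of aged replicates 1, 2, 4 and 6, 5 weeks replicates 2, 6 and 7 or 8 weeks replicate 3, with adjusted p-values from 0.0505 (without 8 weeks replicate 3) to 0.122 (without aged replicate 1). It also ended with no set term (limma adjusted p = 0.076) and with the replicate number as a block (adjusted p = 0.067). Against 8 weeks it was called without 5 weeks replicate 1 or 6, 8 weeks replicate 5 or 7, or aged replicate 5 or 7, with limma adjusted p-values from 0.0312 to 0.0477.

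Dmd encodes dystrophin, which ties cortical actin to the matrix through the membrane (ENSMUSG00000045103, chrX:82948870-85206141, plus strand, GRCm38). The lowest, median and highest levels were 14.6, 30.7 and 43.7 CPM at 5 weeks, 21.3, 32.4 and 52.5 at 8 weeks and 26.4, 50.2 and 61.1 in aged uteri. At 5 weeks every library lay below 4 of the 6 aged ones, and the lowest aged library fell among the younger. The difference was 0.73 ± 0.26 (limma adjusted p = 0.0484) against 5 weeks and 0.50 ± 0.26 (adjusted p = 0.186) against 8 weeks. This call stood close to the threshold and ended without any one of 15 libraries (aged replicates 1, 2, 4, 5 and 6, 5 weeks replicates 1, 2, 5, 6 and 7, and 8 weeks replicates 1, 3, 4, 5 and 6), up to an adjusted p of 0.112 without aged replicate 1. It ended too with quantile normalization (limma adjusted p = 0.0542), median centring (0.0543), no set term (0.0763) and the replicate block (0.0602).

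Tagln, which binds and bundles actin, showed lowest, median and highest levels of 486, 2634 and 3486 CPM at 5 weeks, 314, 3902 and 4518 at 8 weeks and 754, 4692 and 7298 in aged uteri. Its difference was 0.55 ± 0.53 (limma adjusted p = 0.502) against 8 weeks and 0.88 ± 0.53 (adjusted p = 0.236) against 5 weeks. Flna, which cross-links actin at dense bodies and at the membrane, ran through 445, 1044 and 1983 CPM at 5 weeks, 597, 911 and 2626 at 8 weeks and 809, 1664 and 2272 in aged uteri, with 0.54 ± 0.37 (adjusted p = 0.33) and 0.71 ± 0.37 (adjusted p = 0.173). Neither passed, and both overlapped across ages; without aged replicate 7 Tagln was called against 5 weeks (adjusted p = 0.0427). Of the 17 genes in this class, 15 had a positive difference in each comparison, with medians of 0.41 and 0.43; Pgm5, a phosphoglucomutase-like adhesion protein, came next with 1.07 ± 0.40 against 8 weeks (limma adjusted p = 0.0701). Pdlim7 and Vcl were the members on the negative side, at -0.18 and -0.02 against 8 weeks.

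The transcription regulators were not called with age. Srf, the serum response factor, had lowest, median and highest levels of 44.4, 80.1 and 158 CPM at 5 weeks, 51.2, 74.6 and 155 at 8 weeks and 53.7, 96 and 146 in aged uteri. Its difference was 0.04 ± 0.20 against 8 weeks (limma adjusted p = 0.919) and -0.06 ± 0.20 against 5 weeks (adjusted p = 0.861). By set, Srf stood at 124 to 158 CPM in the earlier and 44.4 to 132 CPM in the later libraries. Tgfb1i1, the LIM coactivator Hic-5, went from 82.9, 131 and 223 CPM at 5 weeks and 69.3, 167 and 337 at 8 weeks to 92.8, 255 and 438 in aged uteri, a difference of 0.36 ± 0.35 (adjusted p = 0.508) and 0.71 ± 0.35 (adjusted p = 0.143). Myocd, the muscle-restricted coactivator, lay between 0.659 CPM in 5 weeks replicate 6 and 22.9 CPM in aged replicate 1, the widest range of the 40 genes at 34.8-fold. All 3 overlapped across ages, and the ranges of Srf nearly coincided, each age holding libraries of both sets.

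For calcium entry, Cacna1c was called against 5 weeks. It encodes the pore of the L-type calcium channel that carries the main depolarising current of myometrium (ENSMUSG00000051331, chr6:118587240-119196418, minus strand, GRCm38). The lowest, median and highest levels were 7.95, 21.4 and 41 CPM at 5 weeks, 12.4, 25 and 51.5 at 8 weeks and 34.1, 40 and 90.7 in aged uteri. The aged minimum lay above 6 of 7 libraries in each younger group, and aged replicate 1 stood far above the rest. The difference was 1.11 ± 0.32 (limma adjusted p = 0.0194) against 5 weeks and 0.86 ± 0.32 (adjusted p = 0.0716) against 8 weeks. Without aged replicate 1 the first was 0.95 (limma adjusted p = 0.057). The second was called without 8 weeks replicate 7 (adjusted p = 0.0214) or 5 weeks replicate 6 (adjusted p = 0.0461).

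Mrvi1, the substrate through which cGMP-dependent kinase restrains calcium release, had lowest, median and highest levels of 32.5, 97.5 and 152 CPM at 5 weeks, 33.7, 82.7 and 204 at 8 weeks and 110.2, 183 and 233 in aged uteri. Its differences, 1.09 ± 0.39 (limma adjusted p = 0.0595) and 1.08 ± 0.39 (adjusted p = 0.0526), lay just past the threshold on the uncalled side. Leaving out 5 weeks replicate 6, 8 weeks replicate 7 or aged replicate 7 brought the first below it, and leaving out 5 weeks replicates 1, 4 or 5, 8 weeks replicates 4 or 7, or aged replicates 5 or 7 the second, the lowest limma adjusted p being 0.0219 and 0.0335. Jph2, junctophilin 2, which holds store membranes near the plasma membrane, went through 13.3, 62 and 147 CPM at 5 weeks, 27.6, 44.7 and 73.5 at 8 weeks and 42.4, 69.4 and 156 in aged uteri, with 0.65 ± 0.41 (adjusted p = 0.286) against 8 weeks. The subunits of the large-conductance potassium channel, Kcnma1 and Kcnmb1, had differences of 0.63 ± 0.49 and 0.68 ± 0.50 against 8 weeks, neither called. Pln, the inhibitor of the store calcium pump, was the one gene of this class below 0 against 8 weeks (-0.15 ± 0.55).

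No kinase or phosphatase gene was called. Mylk, myosin light chain kinase, had lowest, median and highest levels of 276, 703 and 1180.2 CPM at 5 weeks, 237, 859 and 1378 at 8 weeks and 305, 848 and 1707 in aged uteri, a difference of 0.20 ± 0.43 (limma adjusted p = 0.778) and 0.27 ± 0.43 (adjusted p = 0.683). Ppp1r12b, a targeting subunit of myosin phosphatase, ran from 30, 112 and 193 CPM at 5 weeks and 55.9, 79.7 and 253 at 8 weeks to 85.4, 153 and 367 in aged uteri, with 0.66 ± 0.41 (adjusted p = 0.274) and 0.69 ± 0.41 (adjusted p = 0.228). Its paralog Ppp1r12a stood at 0.03 ± 0.32, the phosphatase inhibitor Ppp1r14a (CPI-17) at 0.26 ± 0.39 and Prkg1 at 0.79 ± 0.49 against 8 weeks. All 5 differences were positive in both comparisons, and their ages overlapped; that of Mylk against 8 weeks was negative without aged replicate 1 (-0.15) or 8 weeks replicate 1 (-0.01).

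Both sets were then taken apart, since each holds its own 5-week, 8-week and aged libraries. In the earlier set, 39 of 40 genes were higher on average in the 2 aged than in the 2 8-week libraries (53.6% of all genes). The median difference was 1.56 (all genes 0.07). In 36 of 40 the groups did not overlap, 35 higher and 1 (Pdlim7) lower, where 68.5% of all genes did not overlap with 2 libraries against 2. In the later set, 20 of 40 genes were higher (53.7% of all genes) and 20 lower, with a median of 0.01 (all genes 0.03). There 0 of 40 were without overlap (5.23% of all genes). Myh11 was 2.98 ± 1.00 in the earlier and 0.03 ± 0.67 in the later set, Mylk 2.00 ± 0.63 and -0.60 ± 0.42, and Acta2 1.67 ± 0.98 and -0.71 ± 0.65 (log2 ± SE). Synm kept its direction, at 2.80 ± 0.63 and 0.75 ± 0.42, as did Lmod1 at 2.50 ± 0.81 and 0.83 ± 0.54.

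The test of the difference between sets passed for 0 of 40 genes (3 of 12791 over all genes, 0.0235%); the lowest limma adjusted p was 0.105, for Synpo2 and Pdlim3. The aged mice of the sets differed in age, so an effect of that age and of the set cannot be told apart. Fitted alone, the earlier set called 15 of 40 genes against 8 weeks (28.2% of all genes) and the later set 0 (1.43% of all genes).

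**Figure D4:**
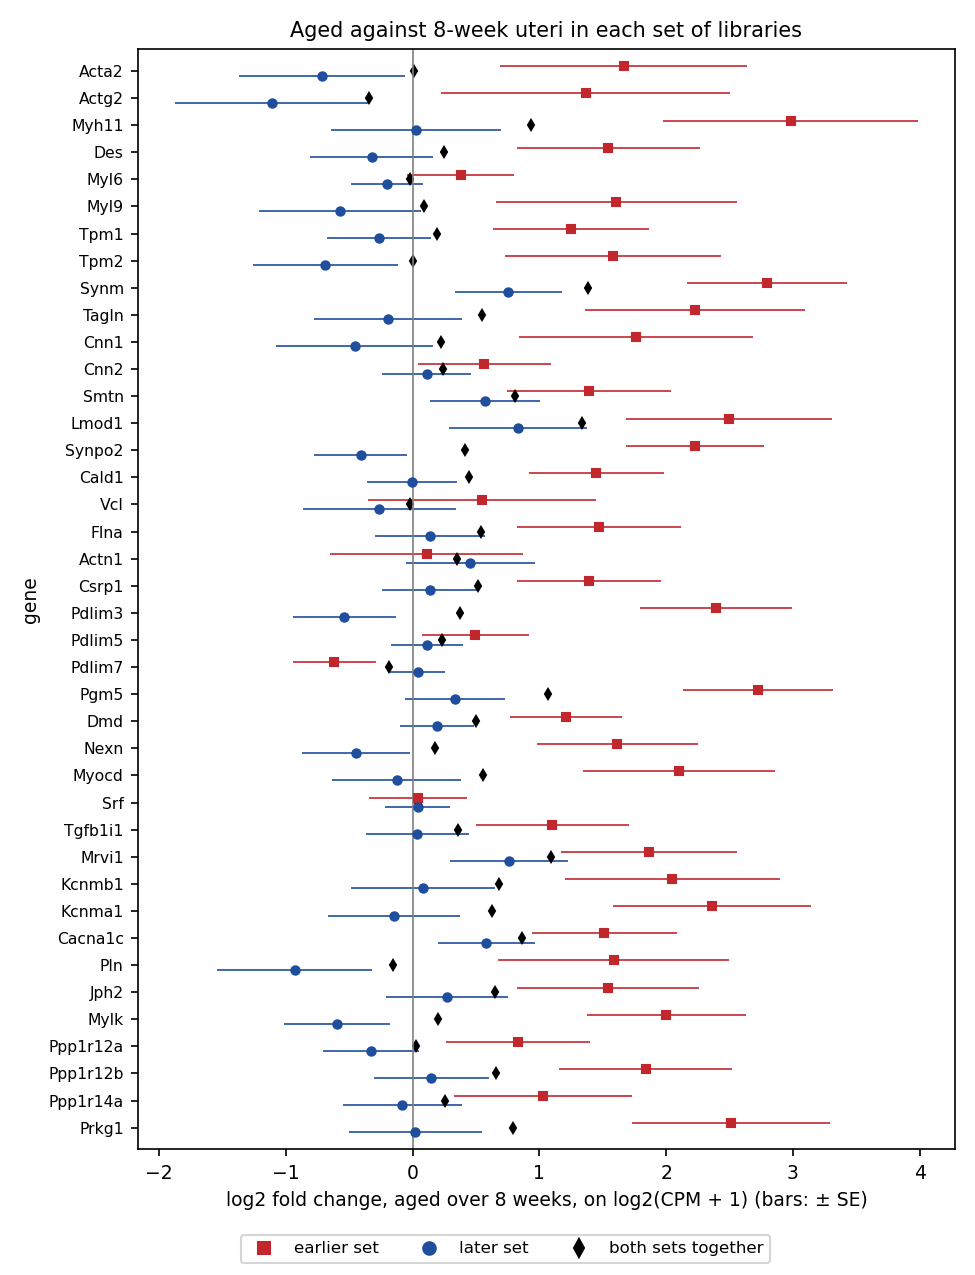
Log2 fold change of aged over 8-week uteri on log2(CPM + 1) (horizontal axis) for each gene (vertical axis, by role), in the earlier set (squares), the later set (circles, both with bars ± SE) and both together (diamonds). In the earlier set 39 of 40 genes lie right of 0, in the later set 20 of 40.

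Against 5 weeks the sets lay closer together. In the earlier set 37 of 40 genes were higher in aged uteri (54.8% of all genes), with a median of 0.79. There 8 were higher and 1 lower, Pdlim7, without overlap, against 68.6% of all genes. In the later set 28 of 40 were higher (56.8% of all genes), with a median of 0.32. Cacna1c was the 1 gene without overlap in the later set (7.4% of all genes), where aged libraries held 34.1 to 46.8 CPM and 5-week libraries 7.95 to 30.1. Its difference was 1.07 ± 0.57 in the earlier and 1.11 ± 0.38 in the later set. Smtn had 0.91 ± 0.65 and 1.42 ± 0.43, and Lmod1 1.41 ± 0.81 and 1.30 ± 0.54. Fitted alone, the earlier set called 5 of 40 genes against 5 weeks, 4 higher and 1 lower (20.4% of all genes) and the later set 0 (4.09%). The test of the difference between sets passed for 0 of 40 members and 0 of all genes, with a lowest member adjusted p of 0.156 for Pdlim7.

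Between 8 and 5 weeks, limma called 0 of 40 genes and 0 of all 12791 (0%); at an unadjusted p under 0.05 there were 0 members and 139 genes. The ages overlapped for 40 of 40 genes (1 of all genes, 0.00782%, did not). The median difference of the members was 0.08 (all genes 0.03), with 26 of 40 positive (59.9% of all genes). By set the direction was opposite. In the earlier set 0 of 40 genes were higher at 8 weeks (median -0.77), where 54.3% of all genes were. In the later set 37 of 40 were (median 0.46), where 57.2% of all genes were. The earlier set has 2 libraries of each age, and in 5 weeks replicate 1 alone 38 of 40 genes lay above the mean of the set. Since many members moved together by library, such counts are not 40 separate observations. In the earlier set 21 genes were lower without overlap (44.1% of all genes did not overlap), and in the later set Tagln was higher without overlap (0.149% of all genes), at 3898 to 4518 CPM against 899.9 to 3486 CPM. The difference between the sets passed for 0 of 40 genes and 0 of all genes.

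Of the contrasts, that between the sets called the most genes. With age in the fit, 22 of 40 were called between the later and the earlier set, 16 higher and 6 lower, against 58.7% of all genes (2618 higher, 20.5%, and 4894 lower, 38.3%). The median was 0.49 for the members and -0.20 for all genes; centring each library on its median gene moved the latter to 0.09 and the calls to 4330 genes higher and 3497 lower, with 21 members higher and 5 lower. Quantile normalization gave 3683 genes higher and 3838 lower, with 15 members higher and 6 lower.

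Myl6 was the 1 member whose sets did not overlap (10.4% of all genes): 271 to 421 CPM in the 6 earlier and 915 to 2698 CPM in the 14 later libraries. The difference was 2.60 ± 0.20 (limma adjusted p = 2.9e-09). Filaments and motors were higher in the later set in 8 of 9 genes, among them Acta2 at 2.03 ± 0.51 (limma adjusted p = 0.00203) and Myl9 at 1.84 ± 0.49 (adjusted p = 0.00314); Synm was not called (0.11 ± 0.35). Tagln (1.92 ± 0.46), calponin 1, Cnn1 (1.77 ± 0.47), and the LIM protein Pdlim3 (1.87 ± 0.39) were also higher. Lower in the later set were Actn1, alpha-actinin 1 (-1.38 ± 0.35), Vcl (-1.35 ± 0.42), Pdlim7 (-1.23 ± 0.21), Pdlim5 (-1.05 ± 0.20), Srf (-1.02 ± 0.18) and Ppp1r12a (-0.76 ± 0.28). Members of 1 family thus lay on opposite sides, as Pdlim3 did from Pdlim5 and Pdlim7.

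The set difference was also read by exon length. Among the 20 members with the shortest summed exons (1162 to 4849 bases) the median was 1.05, with 12 called higher and 2 lower. Among the 20 longest (5147 to 23801 bases) it was -0.07, with 4 higher and 4 lower. Over all genes the median was 0.04 for the 6385 shorter ones, with 1868 called higher and 1644 lower, and -0.47 for the 6382 longer ones, with 739 higher and 3247 lower. The part of read length, library preparation or tissue make-up in this was not tested.

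**Figure D5:**
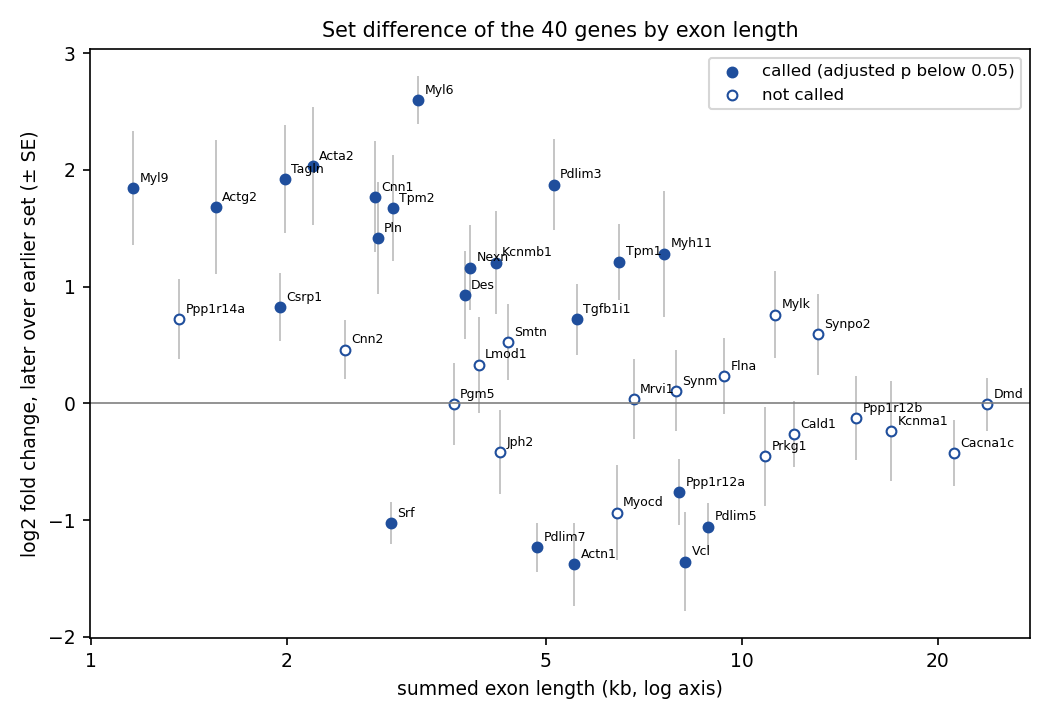
Log2 fold change of the later over the earlier set (vertical axis, ± SE) against summed exon length in kb (horizontal axis, logarithmic) for each of the 40 genes; filled points were called by limma. The 20 shortest genes have a median of 1.05 and the 20 longest of -0.07.

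Partners of the contractile genes were read from lists of related pathways. Among 27 further calcium-handling genes, 3 were higher and 2 lower in aged than in 5-week uteri. Cacnb3, a beta subunit of the same channel as Cacna1c, went from 24.6 ± 12.4 CPM at 5 weeks and 24.5 ± 9.23 at 8 weeks to 75.2 ± 35.9 in aged uteri (mean ± SD), an increase of 1.52 ± 0.35 (limma adjusted p = 0.00484) against 5 weeks. Trpc1, a cation channel, was higher by 0.88 ± 0.21 (limma adjusted p = 0.00643).

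Of 15 uterotonic receptors, ligands and gap junction genes, 3 were higher and 1 lower in aged uteri in both comparisons. Agtr1a, the angiotensin II receptor, was at 6.19 ± 3.23 CPM at 5 weeks, 7.09 ± 3.23 at 8 weeks and 26.1 ± 10.4 in aged uteri, an increase of 1.75 ± 0.32 (limma adjusted p = 0.00139) against 8 weeks and 1.91 ± 0.32 (adjusted p = 0.000455) against 5 weeks. Edn1, the vasoconstrictor and uterotonic peptide endothelin 1, was at 14.9 ± 4.97, 17.8 ± 5.8 and 46.2 ± 14.8 CPM in the same order, with 1.32 ± 0.27 (limma adjusted p = 0.00264) and 1.55 ± 0.27 (adjusted p = 0.000524). Gja1, connexin 43, which couples myometrial cells electrically, fell from 227 ± 99.5 CPM at 5 weeks to 108 ± 44.2 CPM in aged uteri (-1.08 ± 0.31, adjusted p = 0.017).

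Of 18 genes for RhoA, its kinases and partners of myosin phosphatase, 2 were higher and 1 lower in each comparison. Gucy1a1, a subunit of the nitric oxide receptor that makes cGMP, was higher by 1.45 ± 0.37 against 5 weeks (limma adjusted p = 0.00961), and Rhoa was lower by -0.40 ± 0.11 against 8 weeks (adjusted p = 0.0203). Of 11 further channels 2 were higher against 5 weeks, the calcium-activated potassium channel Kcnn3 (1.62 ± 0.42, limma adjusted p = 0.0099) and Kcnq1 (1.22 ± 0.34, adjusted p = 0.0154). In the dystrophin complex, 2 of 9 were higher against 5 weeks, among them epsilon-sarcoglycan, Sgce (0.75 ± 0.21, limma adjusted p = 0.0167). Of 22 focal adhesion and integrin genes 1 was, talin 2 (Tln2, 1.21 ± 0.32, limma adjusted p = 0.0118).

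Of 30 other smooth muscle genes 5 were higher and 1 lower against 5 weeks, among them the small muscle protein Mustn1 (1.76 ± 0.44, limma adjusted p = 0.00751) and the desmin chaperone Cryab (0.84 ± 0.18, adjusted p = 0.00327). Of 15 listed paralogs of the members, mostly non-muscle forms but with the muscle filamin Flnc among them, 0 were called against 5 weeks and 1 was lower against 8 weeks. These shares compare with 12.7% of all genes higher and 9.41% lower against 5 weeks. In the later set alone (4.09% of all genes called), Agtr1a and Edn1 passed against 5 weeks, and the other partners named here with a value against 5 weeks did not; against 8 weeks Agtr1a, Edn1 and Rhoa did not. With columns taken by file, the calls of Rhoa against 8 weeks (limma adjusted p = 0.131) and Kcnq1 (adjusted p = 0.229) ended. That of Sgce ended without the 4 columns filed under another age or set (limma adjusted p = 0.073) and with median centring (adjusted p = 0.0568). In the earlier set alone, the calls of Gja1 (limma adjusted p = 0.0864) and Tln2 (0.0669) against 5 weeks and Rhoa against 8 weeks (0.116) ended. Without aged replicates 1 and 7, those of Gja1 (limma adjusted p = 0.102) and Kcnq1 (0.0979) against 5 weeks and Rhoa against 8 weeks (0.0894) ended. With no set term, the calls of Rhoa, Gja1, Kcnq1, Sgce, Mustn1 and Cryab ended (limma adjusted p = 0.0545 for Gja1 to 0.12 for Cryab). Cryab shares 17% of its exon bases with Hspb2.

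Markers of other cells were read the same way, beside 8.64% of all genes higher and 8.53% lower against 8 weeks and 12.7% and 9.41% against 5 weeks. Of 18 endometrial stromal markers 1 was higher and 2 lower against 8 weeks, and 2 higher and 4 lower against 5 weeks. Of 22 epithelial markers 2 were higher in each comparison and 0 and 1 lower. Of 18 vascular endothelial markers 1 was higher against 8 weeks and 3 against 5 weeks, with a summed level of 393 to 945 CPM at 5 weeks, 389.7 to 1066 CPM at 8 weeks and 771 to 1118 CPM in aged uteri. Of 9 listed pericyte markers 0 were called in either comparison, and their sums were 113 to 659, 155 to 677 and 198 to 725 CPM in the same order. Of 11 listed leukocyte markers 2 and 4 were higher, with sums of 543 to 1452, 517 to 2806 and 1489 to 3330.2 CPM. Of 10 listed mesothelial markers, which lie on the outer coat next to the muscle, 1 and 2 were higher, with sums of 153 to 587, 274 to 656 and 236 to 1932 CPM. Their part in the age differences of the contractile genes was not tested.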

How the data were processed

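RNA-seq of whole mouse uterus was deposited as CPM per gene (reads scaled to library size), 1 column per library. GRCm38, featureCounts, STAR, fastp and edgeR appear, without versions, among the submitters' processing notes. The authors' tables list 12791 genes in 20 libraries, and 1 further file held no numbers (aged replicate 3, not analysed here). Every value was a whole multiple of 1 read (100% within 0.01 read), which gave the depths, summed over the listed genes. Columns were assigned by their headers, which named another sample than the file in 15 of 20 cases.

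Values were tested as log2(CPM + 1) with limma 3.58.1 (R 4.3.3; trended prior), in 1 fit over all 20 libraries with age group and library set as terms, and p-values were adjusted by Benjamini-Hochberg over all 12791 genes; a gene with an adjusted p below 0.05 was called. A fold change on this scale understates the change of low genes. No filter was added to that of the deposited tables. The set difference of an age effect was tested as an interaction. Exon lengths, overlaps and positions came from GENCODE M21 (GRCm38; 12767 of 12791 identifiers matched), and promoters from RefSeq (GRCm38.p6).

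Full statistics are given for genes called in an age comparison and for the 2 most abundant of each role; of each related list at most 4 called genes are named, and some are not reported here. The 40 genes, the lists and the tests were chosen with earlier results of these data known. Alternatives were other pseudocounts, scalings, priors and weights, a mean CPM of at least 5, single sets, a replicate block, no set term, assignment by file and leaving out libraries. Calls at this depth are limited by the spread between libraries: the lowest gene had 10 reads in a library, and intervals for counting error alone are not given.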

Additional observations from a re-analysis of the deposited data

Results flagged for a closer look

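Of 123 groups of 6 or 7 libraries examined for a value far from the others (each of the 40 genes and the summed share in each age), 1 held one: Cacna1c in aged replicate 1 reached 90.7 CPM, and the nearest aged library 46.8 CPM. On the log2(CPM + 1) scale this gap was 0.679 of the range of the aged group, above the limit of 0.625 for 6 samples. Chance flags about 1 in 20 groups. In the same library 38 of the 40 genes lay above the mean of the earlier set. Without it, the difference of Cacna1c against 5 weeks was 0.95 (limma adjusted p = 0.057; 1.11 and 0.0194 with it).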

How the results depend on the processing

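The spread between libraries of 1 age limits all calls on these genes. Genes called in aged against 8-week uteri (2196) numbered 969 with no set term, 183 in the later set alone, 3613 in the earlier set alone, 565 with columns taken by file, 5518 with array weights, 893 without aged replicates 1 and 7 (the aged libraries whose members deviated most from their set in each direction) and 1429 without the 4 columns filed under another age or set; these last 2 alternatives were chosen after seeing the data. The contractile genes called there (1) numbered 2 with a pseudocount of 5, 4 with quantile normalization and 4 with median centring. In these settings 2255, 2501 and 2559 of all 12791 genes were called. The contractile genes numbered 0 in the later set, 15 in the earlier set, 0 by file, 13 with array weights, 0 without aged replicates 1 and 7 and 0 without the 4 columns. Against 5 weeks (2825 genes, 5 members) there were 1380 and 3 with no set term, 523 and 0 in the later set, and 5136 and 8 with array weights. There were 1526 and 1 without aged replicates 1 and 7, 2014 and 1 by file, and 2546 and 2 without the 4 columns. Between the sets (7512 genes, 22 members) there were 3403 and 5 by file, and 6418 and 14 without the 4 columns. The cause of these shifts was not tested, beyond the smaller number of libraries in some.

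Leaving out 1 library at a time gave 1309 to 2617 genes and 0 to 5 members against 8 weeks, 1982 to 3294 genes and 0 to 10 members against 5 weeks, 0 to 0 genes and members between 8 and 5 weeks, and 6804 to 7813 genes and 16 to 26 members between the sets. The lowest count against 8 weeks came without aged replicate 1, followed by 1358 without 8 weeks replicate 2 and 1454 without 8 weeks replicate 1. Of all genes called in aged against 5-week uteri, quantile normalization put 1462 higher and 1497 lower and median centring 1526 and 1645, against 1622 and 1203 as deposited.

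Some uncalled differences near 0 changed sign. Acta2 against 8 weeks (0.01) was -0.033 with median centring, -0.085 with no set term, -0.71 in the later set, -0.10 without the 4 columns and -0.31 to 0.64 with 1 library left out; against 5 weeks (0.12) it was -0.055 in the later set and -0.20 to 0.75 with 1 library left out. Tagln against 8 weeks was -0.20 in the later set. Myl6 (-0.02) was 0.010 with quantile normalization, 0.023 with the replicate block, 0.38 in the earlier set, 0.091 by file, 0.12 with array weights, 0.14 without aged replicates 1 and 7, and -0.11 to 0.20 with 1 library left out. Mylk (0.20) was -0.60 in the later set and -0.15 to 0.55 with 1 library left out. Srf (0.04) was -0.0046 with median centring, -0.039 by file, -0.056 with array weights, -0.19 without aged replicates 1 and 7, and -0.15 to 0.12 with 1 library left out.

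The correlation of same-numbered libraries' deviations ran from -0.505 to 0.279, over 0.1 in 10 of 19 pairs. With 2 earlier libraries per age, their deviations from the mean mirror each other. Replicates 1 and 2 therefore gave the same correlations (0.104, 0.269 and -0.153), each counted again among the 19. In all, 5 of 20 libraries correlated best with their own number, and the number expected by chance was not worked out. These values do not settle whether the replicate numbers pair the libraries. With the replicate number as a block in place of the set, 1637 genes and 1 member were called against 8 weeks and 2413 genes and 3 members against 5 weeks. The 2 planned count-model alternatives were not run, since the deposited unit is CPM.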
